A study of Homo sapiens with 6 samples.

Results

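The genes described here lie on chromosome 13 and were chosen because that chromosome reads low in a melanoma line that overexpresses wild-type TET2. The list names 59 genes, of which 58 were analysed out of 14428 genes tested on the arrays, and 1 is not analysed here. Each gene is represented by the probe set with its highest mean among probe sets that name 1 gene. The members were chosen by their measured differences between lines at each glucose concentration, so those differences are given as a description, and no test is read from them. No cut on their size was stated, and 5 of the 58 members lay at or above 0 in TET2WT against Mock.

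The cells were A2058, an established human melanoma line, in 3 versions. TET2WT cells overexpressed wild-type TET2, TET2M cells overexpressed a form of TET2 whose label elsewhere reads Mut, and Mock cells carried the mock construct. Each line was kept for 7 days in DMEM medium with 4.5 g/L glucose, called high, or 1 g/L glucose, called normal. Total RNA of each of the 6 combinations was hybridised to 1 Affymetrix array, so each line has 2 arrays. The change carried by TET2M, the promoter that drives the construct, and whether a line is 1 clone or a pool are not stated in the labels. No combination was measured more than once, so p-values measure only how single arrays scatter around the model, a scatter that may be technical, and the number of arrays limits the precision. All values are on the log2 scale, on which a difference of -1 is a halving, and ± gives the standard error from limma, a linear model fitted across all genes.

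TET2 is an enzyme that oxidises 5-methylcytosine, the methylated base found mainly at CG dinucleotides, and so takes part in removing DNA methylation. Chromosome 13 is acrocentric, and its genes lie on its long arm, among them the tumour suppressor RB1. The members do not form 1 pathway. They are housekeeping and regulatory genes with neighbouring addresses, from subunits of the transcription machinery and the RNA exosome to parts of the ubiquitin, mitochondrial and membrane traffic systems.

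The 250 bases before the RefSeq gene start (assembly GRCh38.p14) are shown for the 3 members with the largest deficit in TET2WT, averaged over the comparisons with Mock and with TET2M, and for the member with the largest excess, STK24, chosen after its values were seen. They are shown because CG dinucleotides are where TET2 acts, and because these 4 genes mark both ends of the range of differences. CG dinucleotides are in capitals, and each sequence runs 5′ to 3′ on the strand of its gene.
SUCLA2, chr13:48001274-48001523, minus strand: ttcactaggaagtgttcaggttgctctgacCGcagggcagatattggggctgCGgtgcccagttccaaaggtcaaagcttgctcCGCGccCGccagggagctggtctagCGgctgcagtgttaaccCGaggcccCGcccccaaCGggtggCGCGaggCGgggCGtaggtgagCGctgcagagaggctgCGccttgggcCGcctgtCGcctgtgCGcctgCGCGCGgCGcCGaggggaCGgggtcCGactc
KLF5, chr13:73054726-73054975, plus strand: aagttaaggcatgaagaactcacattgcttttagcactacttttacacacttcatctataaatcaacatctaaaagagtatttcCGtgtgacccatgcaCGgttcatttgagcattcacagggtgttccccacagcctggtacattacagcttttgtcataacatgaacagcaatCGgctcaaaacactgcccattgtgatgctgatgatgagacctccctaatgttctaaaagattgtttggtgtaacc
VPS36, chr13:52450635-52450884, minus strand: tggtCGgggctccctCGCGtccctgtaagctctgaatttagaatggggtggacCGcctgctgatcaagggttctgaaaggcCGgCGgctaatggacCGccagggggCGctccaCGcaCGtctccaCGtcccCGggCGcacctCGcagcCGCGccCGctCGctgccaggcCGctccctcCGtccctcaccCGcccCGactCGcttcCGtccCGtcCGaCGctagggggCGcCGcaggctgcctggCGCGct
STK24, chr13:98577108-98577357, minus strand: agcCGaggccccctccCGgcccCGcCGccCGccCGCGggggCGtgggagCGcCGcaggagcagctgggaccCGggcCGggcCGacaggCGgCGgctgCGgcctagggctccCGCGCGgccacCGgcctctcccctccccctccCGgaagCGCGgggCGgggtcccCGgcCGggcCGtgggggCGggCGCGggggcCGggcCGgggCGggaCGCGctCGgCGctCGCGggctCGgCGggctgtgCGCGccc

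SUCLA2 and VPS36 hold 25 and 31 CG dinucleotides in these windows, KLF5 holds 3, and STK24 holds 43. The windows of the 3 genes that read lowest thus held from 3 to 31. Each window lies before the RefSeq gene start, and which start these cells used was not measured. Of the 58 members, 53 had a promoter entry, with a median of 23 CG dinucleotides and a range of 0 to 43, against a median of 20 over the 11511 tested genes with an entry. At least 1 CG stood in 52 of the 53 members and in 98.8% of all tested genes, and at least 10 in 45 of the 53 and in 79.2% of all. CG reads the same on both strands, so 1 search covers both. The count of a dinucleotide says nothing of whether it was methylated, which was not measured in the data used here.

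Across the 58 members, the median difference of TET2WT from Mock was -0.455, with a range of -1.015 to 0.17 and an SD over genes of 0.26. On the linear scale the median corresponds to 73.0% of the Mock level. Against TET2M the median was -0.41, and the range ran from -0.90 to 0.315. TET2M itself lay close to Mock, with a median of -0.0375 and a range of -0.36 to 0.255. Over all 14428 genes the same 3 medians were -0.01, 0 and -0.02. The comparisons share arrays, since the TET2WT arrays enter both of the first and the Mock and TET2M arrays enter the third. In RNA from whole cultures, a lower value can come from fewer cells that carry a transcript or from less RNA per cell, and these cannot be told apart.

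The difference was present at each glucose concentration. In high glucose the members' median against Mock was -0.435, with 54 of 58 below 0, and in normal glucose it was -0.445, with 51 of 58 below 0. Against TET2M the medians were -0.37 and -0.43, with 52 and 51 of 58 below 0. Over the 58 genes, the TET2WT to Mock differences at the 2 concentrations had a Pearson r of 0.67 and a Spearman coefficient of 0.63. For TET2M against Mock these were 0.26 and 0.27. The genes are not independent replicates, and each pair of differences shares its lines, so the coefficients are descriptions only.

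In 46 of the 58 members both TET2WT arrays lay below the other 4 arrays, as in 12.8% of all genes tested. In 1 member, STK24, both lay above the other 4, as in 12% of all genes. The other 11 members, with overlapping arrays, were LATS2, KATNAL1, LMO7, MBNL2, FARP1, UBAC2, PCCA, ERCC5, LIG4, ING1 and LAMP1. With limma at a Benjamini-Hochberg adjusted p under 0.05, 19 members were lower in TET2WT than in Mock and 0 were higher, against 2.2% and 2.01% of all genes. Against TET2M, 8 members were lower (1.43% of all genes): GTF3A, PDS5B, MRPS31, SUCLA2, VPS36, PIBF1, KLF5 and SPRY2. These counts restate the choice of the list and are not read further.

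**Figure D1:**
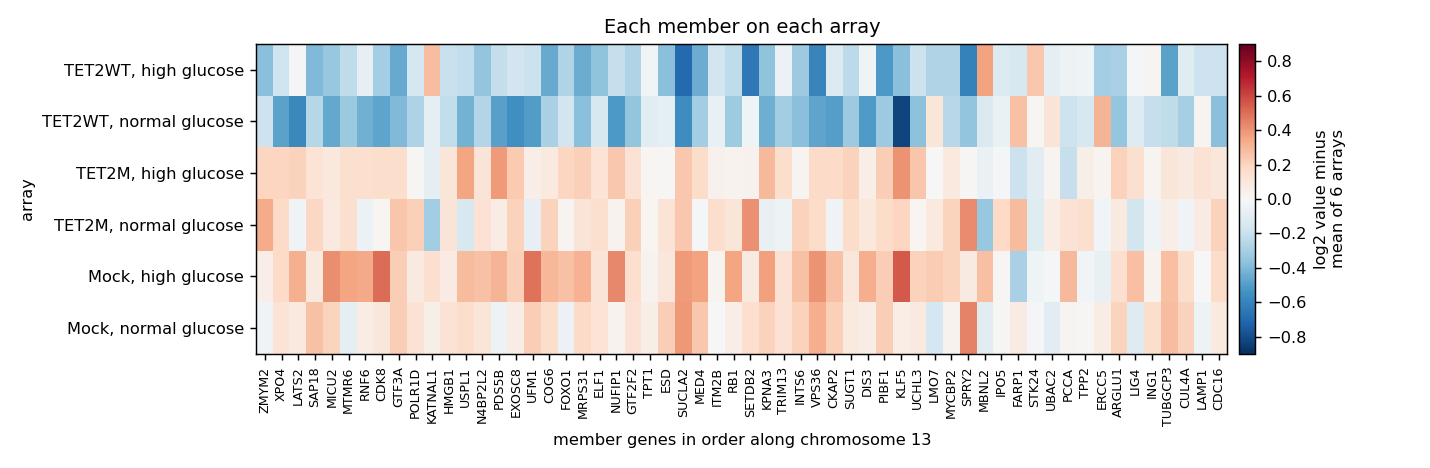
Each column is a member in its order along chromosome 13, each row an array, and the colour is the log2 value minus the mean of the 6 arrays. In 46 of the 58 members both TET2WT arrays lie below the other 4, and the columns without that pattern lie mainly together near the distal end.

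Of the 12 members that make or regulate transcripts, all had both TET2WT arrays below the other 4, with a median difference from Mock of -0.455. KLF5, a Krüppel-like transcription factor of epithelial and proliferating cells, read 6.47 and 6.02 on the TET2WT arrays (high and then normal glucose, an order kept throughout), 7.40 and 6.91 on the Mock arrays, and 7.25 and 7.04 on the TET2M arrays. Its difference from Mock was -0.91 ± 0.105 and from TET2M -0.90, so the deficit was nearly the same against either line. GTF3A, or TFIIIA, which starts transcription of 5S ribosomal RNA, read 9.79 and 9.84 on the TET2WT arrays, 10.46 and 10.46 on the Mock arrays, and 10.40 and 10.49 on the TET2M arrays, a difference from Mock of -0.645 ± 0.087. The spread within a line was at most 0.09, far less than the gap between TET2WT and the others.

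CDK8, the kinase of the Mediator complex that links transcription factors to RNA polymerase II, read 6.30 and 6.13 on the TET2WT arrays, 7.11 and 6.71 on the Mock arrays, and 6.76 and 6.62 on the TET2M arrays. Its difference from Mock was -0.695 ± 0.103 and from TET2M -0.475, with TET2M between the other lines. MED4, another Mediator subunit, differed from Mock by -0.685. INTS6, a subunit of the Integrator complex that processes nascent RNA, differed by -0.585, and SETDB2, of a family of histone methyltransferases, and GTF2F2, the small subunit of TFIIF, each by -0.455.

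The other transcription members had smaller deficits. ELF1, an ETS family factor, differed from Mock by -0.375, POLR1D, a subunit shared by RNA polymerases I and III, by -0.325, and ZMYM2, a zinc finger corepressor, by -0.29. ZMYM2 was the member with the highest TET2M to Mock difference, 0.255, and its deficit in TET2WT was larger against TET2M, at -0.545. FOXO1, a forkhead factor restrained by insulin signalling, read 3.78 and 3.89 on the TET2WT arrays, 4.32 and 4.00 on the Mock arrays, and 4.25 and 4.08 on the TET2M arrays, a difference of -0.325 ± 0.124. Its lowest value outside TET2WT exceeded its highest TET2WT value by 0.11, which is within its standard error.

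HMGB1, an abundant protein that bends DNA and acts as an alarm signal outside cells, read 12.26 and 12.24 on the TET2WT arrays, 12.54 and 12.59 on the Mock arrays, and 12.57 and 12.58 on the TET2M arrays. The difference from Mock was -0.315 ± 0.087, small but with 6 arrays that separate cleanly. Its 5 probe sets did not give 1 size: their differences from Mock were -0.315, -0.285, -0.39, -0.68 and -0.895, in order of falling mean signal from 12.46 to 8.44. In all 5, both TET2WT arrays lay below the other 4. HMGB1 has many near-identical gene copies elsewhere in the genome, so the size of its difference is uncertain.

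All 3 nuclear transport members also had both TET2WT arrays lowest. KPNA3, an importin alpha that carries cargo with a nuclear localisation signal, read 7.93 and 7.85 on the TET2WT arrays, 8.66 and 8.5 on the Mock arrays, and 8.58 and 8.22 on the TET2M arrays, a difference from Mock of -0.69 ± 0.104. XPO4, an exportin, differed by -0.475. IPO5, an importin beta that carries ribosomal proteins among others, differed by -0.10 ± 0.094. Its TET2WT arrays were lowest by only 0.05, within that standard error. None of its other probe sets, at -0.29 to 0.07, had both TET2WT arrays lowest.

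Of the 6 RNA processing members, 5 had both TET2WT arrays below the other 4. NUFIP1, which takes part in assembling small nucleolar ribonucleoproteins, differed from Mock by -0.595, EXOSC8, a ring subunit of the RNA exosome, by -0.505, and SAP18, of the SIN3 and splicing-associated ASAP complexes, by -0.50. ARGLU1, a splicing factor and transcriptional coactivator, differed by -0.495, and DIS3, a catalytic nuclease of the exosome, by -0.475. The exception was MBNL2, a splicing regulator of the muscleblind family, which read 8.71 and 8.22 on the TET2WT arrays, 8.62 and 8.25 on the Mock arrays, and 8.29 and 8.01 on the TET2M arrays. It lay 0.03 ± 0.096 above Mock and 0.315 above TET2M. Its TET2WT and Mock arrays overlapped fully, and its difference between glucose concentrations, 0.38, was larger than either line difference.

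Among the 10 members of growth control and cell division, 7 had both TET2WT arrays below the other 4. PIBF1, a protein of centriolar satellites, read 6.36 and 6.55 on the TET2WT arrays, 7.10 and 7.10 on the Mock arrays, and 7.10 and 7.04 on the TET2M arrays, a difference from Mock of -0.645 ± 0.101. The 4 arrays outside TET2WT spanned only 0.06. TUBGCP3, of the gamma-tubulin ring that nucleates microtubules, differed by -0.63, CKAP2, a spindle protein, by -0.55, and PDS5B, a regulator of cohesin, by -0.48. SUGT1, an HSP90 co-chaperone needed at the kinetochore, differed by -0.375, and CDC16, a subunit of the anaphase-promoting complex, by -0.405.

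RB1, the retinoblastoma protein that holds back E2F factors and so entry into S phase, read 7.92 and 7.83 on the TET2WT arrays, 8.51 and 8.21 on the Mock arrays, and 8.18 and 8.26 on the TET2M arrays. Its difference from Mock was -0.485 ± 0.116 and from TET2M -0.345. The Mock array in high glucose stood above the other Mock and TET2M arrays, which lay between 8.18 and 8.26. The other 3 growth members overlapped: LATS2, a Hippo pathway kinase, at -0.50, ING1, a chromatin reader of the SIN3 deacetylase complex, at -0.19, and KATNAL1, a katanin-like microtubule severing subunit. LATS2 overlapped only narrowly, with TET2WT in high glucose at 6.64 and TET2M in normal glucose at 6.62. At each concentration its TET2WT array lay below those of both other lines. KATNAL1 read 6.38 and 6.01 on the TET2WT arrays, 6.25 and 6.15 on the Mock arrays, and 6.02 and 5.79 on the TET2M arrays, a difference from Mock of -0.005 ± 0.102 and from TET2M of 0.29. It was the only member before MBNL2 in the order of the chromosome with a positive difference from TET2M.

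The 5 mitochondrial and metabolic members included the largest deficit of all. SUCLA2, the subunit of succinyl-CoA synthetase specific to the ATP-forming enzyme of the citric acid cycle, read 7.29 and 7.43 on the TET2WT arrays, 8.37 and 8.38 on the Mock arrays, and 8.23 and 8.23 on the TET2M arrays. Its difference from Mock was -1.015 ± 0.091 and from TET2M -0.87. The gap of 0.80 between the highest TET2WT array and the lowest other array was many times the spread within any line. MRPS31, of the small subunit of the mitochondrial ribosome, read 7.79 and 7.86 on the TET2WT arrays, 8.55 and 8.41 on the Mock arrays, and 8.45 and 8.35 on the TET2M arrays, a difference from Mock of -0.655 ± 0.097.

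MICU2, a gatekeeper of the mitochondrial calcium uniporter, read 7.95 and 7.83 on the TET2WT arrays, 8.71 and 8.49 on the Mock arrays, and 8.39 and 8.38 on the TET2M arrays, a difference from Mock of -0.71 ± 0.096. As with CDK8, TET2M lay between TET2WT and Mock, 0.215 below Mock. ESD, an esterase that clears S-formylglutathione, differed by -0.395. PCCA, the alpha subunit of propionyl-CoA carboxylase, differed by -0.275 ± 0.157 from Mock and by -0.08 from TET2M, and its TET2WT arrays overlapped those of TET2M.

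In membrane traffic, VPS36, a subunit of ESCRT-II that sorts ubiquitinated cargo into endosomes, had the largest deficit. It read 5.62 and 5.74 on the TET2WT arrays, 6.62 and 6.54 on the Mock arrays, and 6.39 and 6.38 on the TET2M arrays, a difference from Mock of -0.90 ± 0.095. COG6, of the conserved oligomeric Golgi tether, differed by -0.60, MTMR6, a phosphoinositide phosphatase, by -0.415, and ITM2B, an integral membrane protein, by -0.13, and in all of these the TET2WT arrays were the lowest. LAMP1, a major glycoprotein of the lysosomal membrane, read 10.29 and 10.50 on the TET2WT arrays, 10.48 and 10.43 on the Mock arrays, and 10.61 and 10.55 on the TET2M arrays, a difference of -0.06 ± 0.106. Its TET2WT arrays overlapped those of Mock, and the difference was smaller than its standard error.

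Of the 9 members of ubiquitin-like systems and proteolysis, 8 had both TET2WT arrays lowest. UFM1, a ubiquitin-like modifier attached to ribosomes at the endoplasmic reticulum, differed from Mock by -0.70, and by less, -0.34, from TET2M. Its TET2M to Mock difference, -0.36, was the most negative among the members. USPL1, a SUMO isopeptidase, differed from Mock by -0.545, RNF6, a RING ubiquitin ligase, by -0.455, and UCHL3, a ubiquitin C-terminal hydrolase, by -0.43. MYCBP2, a very large ubiquitin ligase, differed by -0.375, TRIM13, a ubiquitin ligase of the endoplasmic reticulum, by -0.31, and TPP2, a large cytosolic peptidase, by -0.085. The gap between the highest TET2WT array and the lowest other array was small in several. It was 0.01 in TRIM13 and in TPP2, 0.02 in RNF6 and 0.08 in USPL1, each within the standard error of the gene.

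CUL4A, the scaffold of a cullin-RING ubiquitin ligase with DDB1, read 8.27 and 8.08 on the TET2WT arrays, 8.54 and 8.59 on the Mock arrays, and 8.46 and 8.35 on the TET2M arrays, a difference from Mock of -0.39 ± 0.099. The gap between the highest TET2WT array and the lowest other array was 0.08, within that standard error. UBAC2, an endoplasmic reticulum protein with a ubiquitin-associated domain, was the exception in this group. It read 7.69 and 7.89 on the TET2WT arrays, 7.76 and 7.67 on the Mock arrays, and 7.80 and 7.84 on the TET2M arrays, a difference of 0.075 ± 0.104 from Mock and -0.03 from TET2M. Its TET2WT arrays overlapped those of both other lines.

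Signalling and cytoskeletal members were the most divided, with 2 of 5 lowest on both TET2WT arrays. SPRY2, an inhibitor of receptor tyrosine kinase signalling to ERK, read 9.44 and 9.70 on the TET2WT arrays, 10.13 and 10.50 on the Mock arrays, and 10.06 and 10.48 on the TET2M arrays, a difference from Mock of -0.745 ± 0.092. It was lower in high than in normal glucose in each line, and the line difference was present at both. TPT1, the translationally controlled tumour protein, differed by -0.105 and LMO7, a LIM domain protein of cell junctions, by -0.115. The TET2WT arrays of TPT1 were lowest in all 5 of its probe sets, with differences from Mock between -0.10 and -0.295, and like HMGB1 it has near-identical copies elsewhere.

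STK24, a Ste20-family kinase also called MST3, read 10.13 and 9.91 on the TET2WT arrays, 9.85 and 9.88 on the Mock arrays, and 9.79 and 9.78 on the TET2M arrays. It lay 0.155 ± 0.102 above Mock and 0.235 above TET2M, and it was the member whose TET2WT arrays were both highest. The gap between its lower TET2WT array, 9.91, and the Mock array at 9.88 was within that standard error. The other probe sets of STK24, at 0.005 to 0.265 against Mock, did not have both TET2WT arrays highest. FARP1, a protein with a FERM domain, read 6.62 and 7.03 on the TET2WT arrays, 6.47 and 6.84 on the Mock arrays, and 6.57 and 7.05 on the TET2M arrays, a difference from Mock of 0.17 ± 0.088 and from TET2M of 0.015. In FARP1 the concentrations separated the arrays, and the lines overlapped.

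Both DNA repair members overlapped between lines. ERCC5, the XPG endonuclease of nucleotide excision repair, differed by 0 ± 0.164 from Mock and by 0 from TET2M, and LIG4, the ligase of non-homologous end joining, by -0.145 and -0.055. N4BP2L2, to which no role is given here, differed from Mock by -0.495 with both TET2WT arrays lowest.

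Placed in their order along the chromosome, the members without a deficit were largely neighbours. From ZMYM2 to SPRY2, the 43 members nearest the centromere had a median difference from Mock of -0.485 and from TET2M of -0.455, and 40 of them had both TET2WT arrays below the other 4. The next 8 members, MBNL2, IPO5, FARP1, STK24, UBAC2, PCCA, TPP2 and ERCC5, had medians of 0.015 and -0.015, with a range against Mock of -0.275 to 0.17. Of these 8, IPO5 and TPP2 had both TET2WT arrays below the other 4. The last 7, from ARGLU1 to CDC16, had medians of -0.39 and -0.23, and 4 of them, ARGLU1, TUBGCP3, CUL4A and CDC16, had both TET2WT arrays lowest. The borders of the 3 stretches were drawn after the values were seen, so this is a description and no test was made of it.

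**Figure D2:**
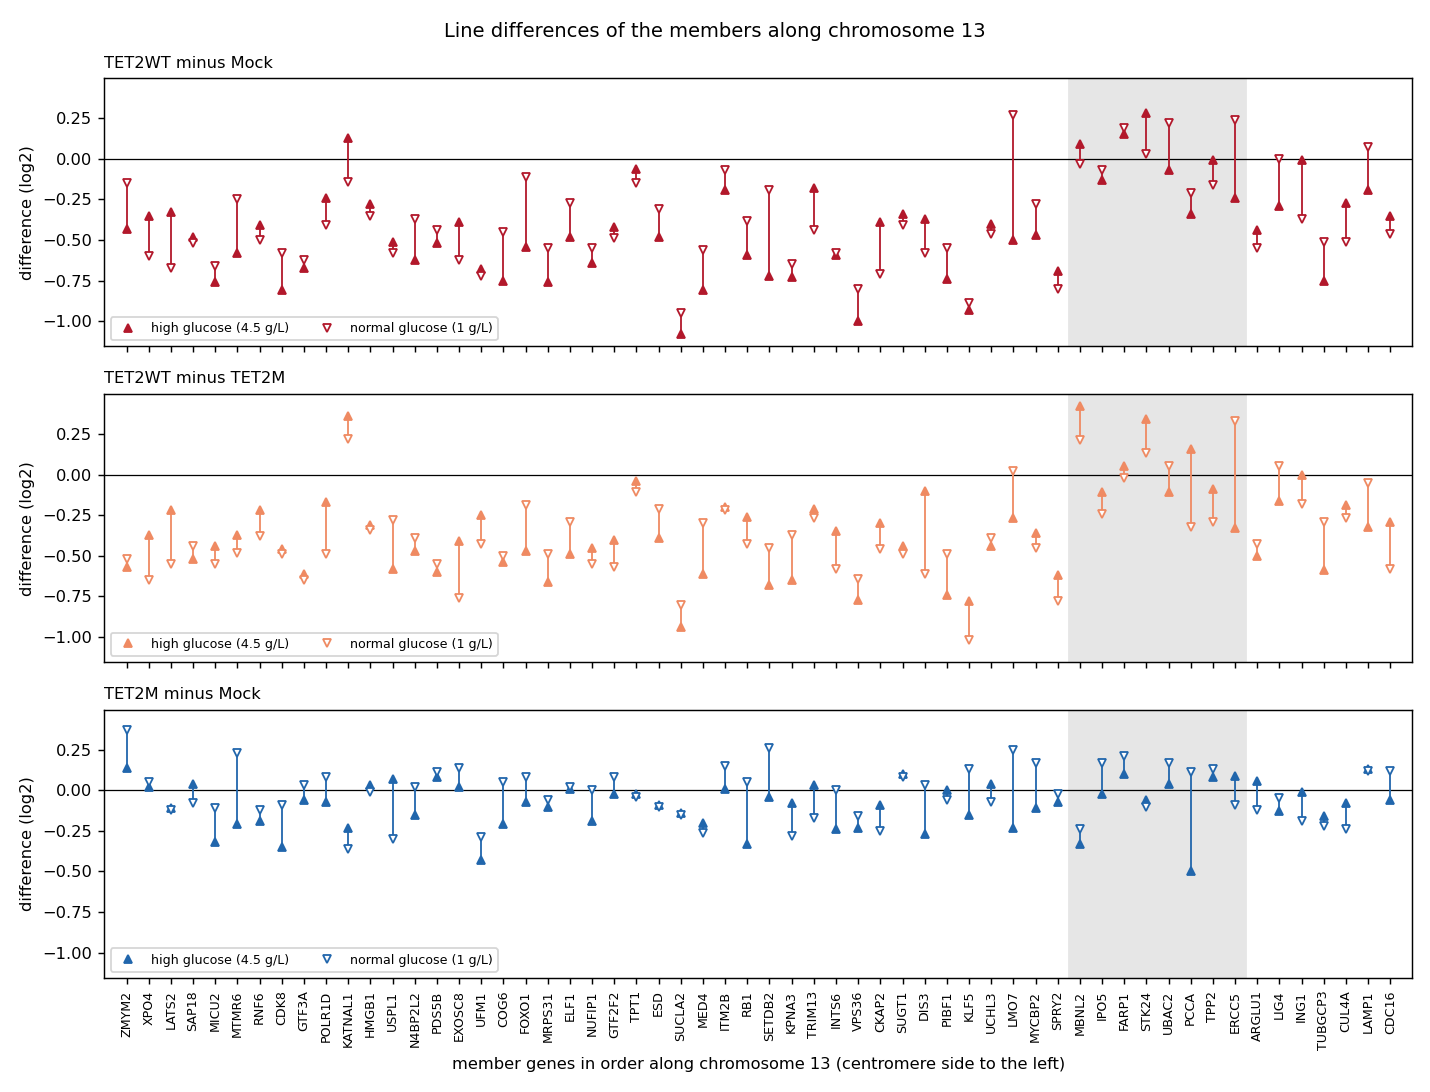
Differences between lines (log2) for each member in order along chromosome 13, in high glucose (filled) and normal glucose (open), with the 2 values of a gene joined by a line and the middle 8 members shaded. The TET2WT differences from Mock and from TET2M lie mostly below 0 outside the shaded stretch, where their medians are 0.015 and -0.015, and the TET2M differences from Mock scatter around 0.

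The middle stretch held more than the members. Among the 133 tested chromosome 13 genes outside the list with a mean at or above 3.61, the 60th percentile of all probe sets, 10 lay in the middle stretch. Their median difference from Mock was -0.0275 and their range -0.32 to 0.35, and 1 of the 10 was below both other lines at both concentrations. The 101 such genes of the proximal stretch had a median of -0.45, with 82 below both lines at both concentrations, and the 22 of the distal stretch a median of -0.28, with 13 below. For the members the same counts were 41 of 43, 2 of 8 and 4 of 7, and over all genes tested the share was 19.4%.

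The gaps in the list on either side of the middle stretch were filled with the tested genes of a mean at or above 3.61. Between SPRY2 and MBNL2 lay 9 such genes, of which 8 were below 0 against Mock, with a median of -0.30. DZIP1 stood at -0.40, DNAJC3 at -0.21, and UGGT2, the last of the 9 before MBNL2, at 0.115. Within the middle stretch, RAP2A stood at 0.165, TM9SF2 at 0.085, TEX30 at -0.085 and POGLUT2 at -0.015, while ZIC2 and TMTC4 were lower, at -0.27 and -0.32. LINC00460 and EFNB2, between ERCC5 and ARGLU1, stood at -0.65 and -0.345. These genes were named for their place, after their values were seen.

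By stretch, the median count of CG dinucleotides in the 250-base windows was 22.5 for the 38 proximal members with an entry. It was 23.5 for the 8 of the middle stretch and 27 for the 7 distal members. The part of CG content in the line differences was not tested.

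Chromosome 13 was chosen because it lay low in TET2WT, so its place among the chromosomes is a description and no test. Over whole chromosomes, chromosome 13 had a median of -0.315 for TET2WT against Mock and of -0.29 against TET2M. The medians of the other chromosomes ran from -0.055, for chromosome 4, to 0.035, for chromosome X, against Mock, and from -0.105, for chromosome 14, to 0.145, for chromosome 20, against TET2M. For TET2M against Mock, chromosome 13 had a median of -0.025, between -0.145 for chromosome 20 and 0.08 for chromosome 14. Both TET2WT arrays lay below the other 4 in 55.3% of the tested genes of chromosome 13, and in 4.08% to 17.5% of those of any other chromosome.

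**Figure D3:**
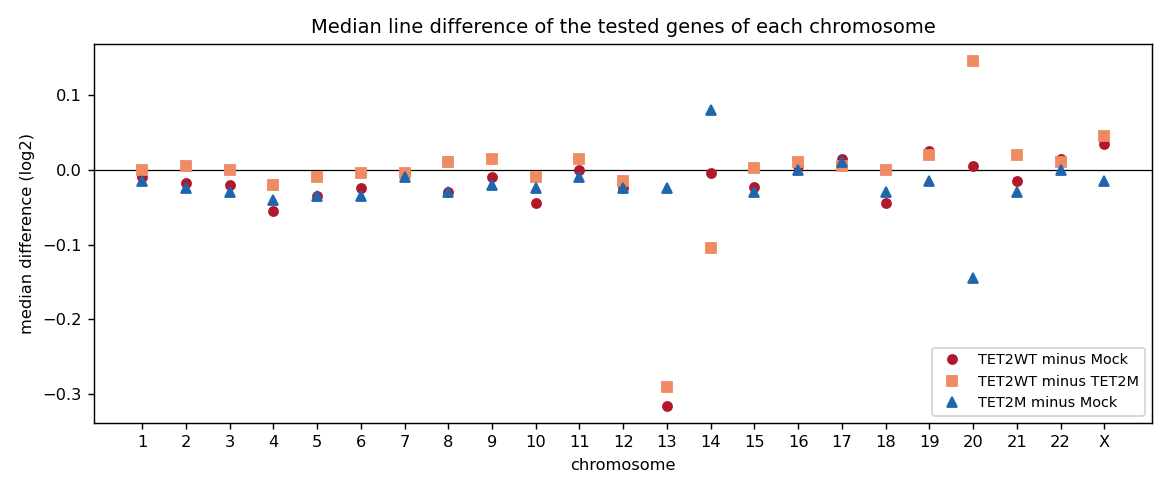
Median difference between lines (log2) over the tested genes of each chromosome, for TET2WT minus Mock, TET2WT minus TET2M and TET2M minus Mock. Chromosome 13, which was chosen for lying low in TET2WT, lies at -0.315 and -0.29 in the comparisons with TET2WT and at -0.025 in TET2M minus Mock.

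For the other 199 chromosome 13 genes that were tested, the median against Mock was -0.255. Those 133 at or above 3.61 had a median of -0.345, and the 66 below it a median of -0.06. Within the members, the 3 with a mean value under 5 had a median of -0.325. The 18 of 5 to 7 had a median of -0.52 and the 24 of 7 to 9 a median of -0.48. For the 11 of 9 to 12 the median was -0.375, and for the pair above 12, HMGB1 and TPT1, -0.21. Across the 58 members the difference had a Pearson r of 0.10 with the mean value and a Spearman coefficient of 0.08. The signal of a probe set also depends on its probes, so its place on this scale is not the abundance of a transcript.

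**Figure D4:**
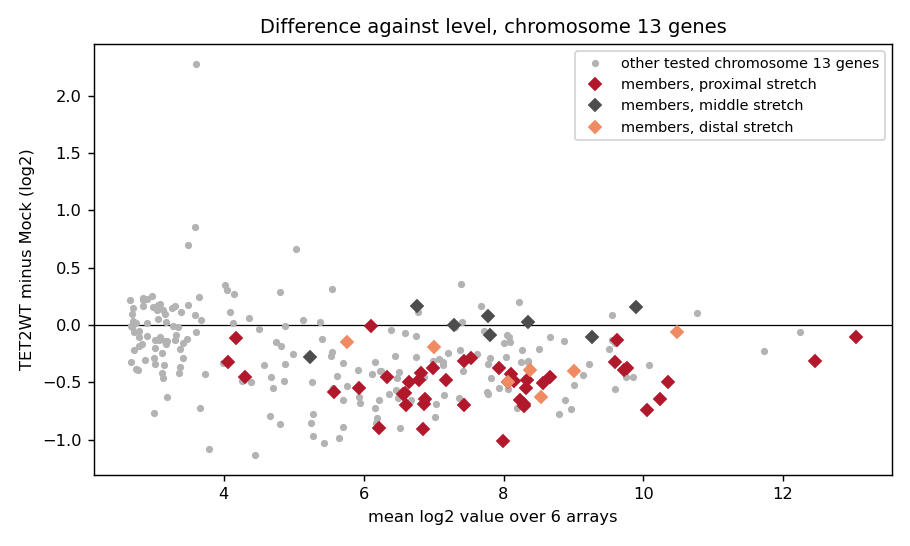
TET2WT minus Mock difference (log2) of each tested chromosome 13 gene against its mean log2 value over the 6 arrays, with members coloured by stretch and other genes in grey. The other genes below a mean of 3.61 centre near 0, at a median of -0.06. The middle members, with means from 5.24 to 9.89, lie above most of the other members.

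The members' probe sets that did not represent a gene were also read. They belong to the same chosen genes and the same arrays, so they are a description and not an independent check. The 58 members had 184 probe sets, of which 94 others, in 43 members, had a mean at or above 2.64, the level taken as close to background. Of these 94, 84 were below 0 in TET2WT against Mock, with a median of -0.325. Both TET2WT arrays were below the other 4 in 57, as in 12.8% of all genes tested, each read by 1 probe set. The 32 probe sets below that level had a median of -0.035, and 2 of them had both TET2WT arrays lowest. In the middle stretch, 15 other probe sets had a median of 0.02, a range of -0.29 to 0.34, and 1 with both TET2WT arrays lowest.

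Several genes gave more than 1 answer. A second KLF5 probe set differed from Mock by -0.475, against -0.91 for the first, and from TET2M by -0.735. ING1 had 3 probe sets between -0.07 and -0.19 and another at -0.885, in which both TET2WT arrays were lowest. LAMP1 read -0.06, -0.23, -0.035 and -0.485 in its 4 probe sets, the first being the one that stands for the gene. All 4 probe sets of CUL4A had both TET2WT arrays lowest, at -0.255 to -0.63. Different probe sets of a gene can read different transcripts, and which transcripts these were was not examined.

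Glucose was not used to choose the members, and its effect was tested over all genes. With limma and Benjamini-Hochberg adjustment, 0 of 58 members changed between high and normal glucose, against 0.00693% of all genes. At an unadjusted p under 0.05 there were 15 members, or 25.9%, and 15.4% of all genes. The adjusted p of the members ran from 0.136 to 0.975. The median difference, high minus normal, was 0.085 in TET2WT, 0.08 in Mock and 0.01 in TET2M. With a prior variance that follows the mean signal, 6 members passed, against 3.97% of all genes: KLF5, MBNL2, PDS5B and RNF6 were higher and SPRY2 and FARP1 lower in high glucose.

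The members with the largest glucose differences kept their sign in each line. KLF5 was higher in high glucose by 0.45 in TET2WT, 0.49 in Mock and 0.21 in TET2M, or 0.38 ± 0.086 (limma adjusted p = 0.171). MBNL2 was higher by 0.49, 0.37 and 0.28 (0.38 ± 0.078, limma adjusted p = 0.162), and LATS2 by 0.57, 0.23 and 0.24 (0.35 ± 0.095, limma adjusted p = 0.212). On the other side, FARP1 was lower in high glucose, at -0.41, -0.37 and -0.48 (-0.42 ± 0.072, limma adjusted p = 0.136). SPRY2 stood at -0.26, -0.37 and -0.42 (-0.35 ± 0.075, limma adjusted p = 0.168), and SETDB2 at -0.60, -0.07 and -0.37 (-0.35 ± 0.113, limma adjusted p = 0.255). High glucose gave the higher value in 3 of 3 lines for 18 of the 58 members, against 16.7% of all genes, and the lower value for 6, against 20.7%.

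No member had a glucose response in TET2WT that differed from that of Mock and TET2M (0 of 58 by limma, against 0% of all genes). At an unadjusted p under 0.05 there were 2 members and 9.18% of all genes. The lowest adjusted p was 0.531, for LATS2, with 0.335 ± 0.098 more response in TET2WT, and for ERCC5, with -0.57 ± 0.136. This fit leaves 1 residual degree of freedom among the arrays, which limits what the test can show.

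Between TET2M and Mock, limma called 0 of 58 members, against 0.097% of all genes. At an unadjusted p under 0.05 there were 3 members and 9.51% of all genes.

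Many members are subunits of complexes or steps of pathways whose other genes lie elsewhere. In 21 such lists, 248 genes on other chromosomes were tested, and 2 further genes, COG3 and MZT1, were left out because they lie on chromosome 13. The lists were written with earlier results of these data known. The partners' median difference of TET2WT from Mock was -0.0725, with a range of -0.61 to 0.525. Of the 248 partners, 163 were below 0, against 7468 of all 14428 genes tested. Both TET2WT arrays were below the other 4 in 52 of the partners, or 21%, against the 12.8% of all genes. With limma, 1 partner was lower and 1 higher at an adjusted p under 0.05, 0.403% each, against 2.2% and 2.01% of all genes.

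Both called partners are in the list of MRPS31, which holds mitochondrial ribosome genes chosen by their MRPS symbols. Membership of the small subunit was not checked gene by gene. MRPS30 read 8.73 and 8.61 on the TET2WT arrays, 9.16 and 9.40 on the Mock arrays, and 9.24 and 9.33 on the TET2M arrays, a difference from Mock of -0.61 ± 0.113 (limma adjusted p = 0.0436). MRPS6 read 9.49 and 9.53 on the TET2WT arrays, 9 and 8.97 on the Mock arrays, and 9.06 and 9.23 on the TET2M arrays, a difference from Mock of 0.525 ± 0.095 (limma adjusted p = 0.0422). Both calls were lost on leaving out any 1 array, and with a prior variance that follows the mean signal 18 partners were called lower and 5 higher, against 6.04% and 4.55% of all genes. The median over the 26 tested genes of this list was -0.065.

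Set beside their own partners, 22 of the 26 members with a list had a more negative difference from Mock than every tested partner. VPS36 stood at -0.90, and its lowest ESCRT partner, TSG101, at -0.105. SUCLA2 stood at -1.015 and PCCA at -0.275, against -0.10 for MMUT, the lowest of the 5 other genes of the route from propionate to succinate. RB1 stood at -0.485, against -0.22 for its relative RBL1, the lowest of 13 pocket proteins, E2F factors, cyclin D kinases and their partners.

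In transcription and RNA decay the same order was seen. CDK8 and MED4 stood at -0.695 and -0.685, and the lowest of 27 Mediator partners, MED30, at -0.44. EXOSC8 and DIS3 stood at -0.505 and -0.475, and the lowest of 12 exosome partners, EXOSC10, at -0.285. MRPS31, at -0.655, was only just below MRPS30.

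The 4 exceptions were ERCC5, LIG4, IPO5 and POLR1D. For ERCC5, 12 of 15 genes of nucleotide excision repair were as low or lower, for LIG4, 3 of 6 of end joining, and for IPO5, 13 of 20 karyopherins. POLR1D, in the proximal stretch, was matched by 6 of 17 subunits of RNA polymerases I and III, and that list had the lowest median of all, -0.225. The list of UFM1 had the highest, 0.08. Since members were chosen for low values, no test was made of a member against its partners.

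**Figure D5:**
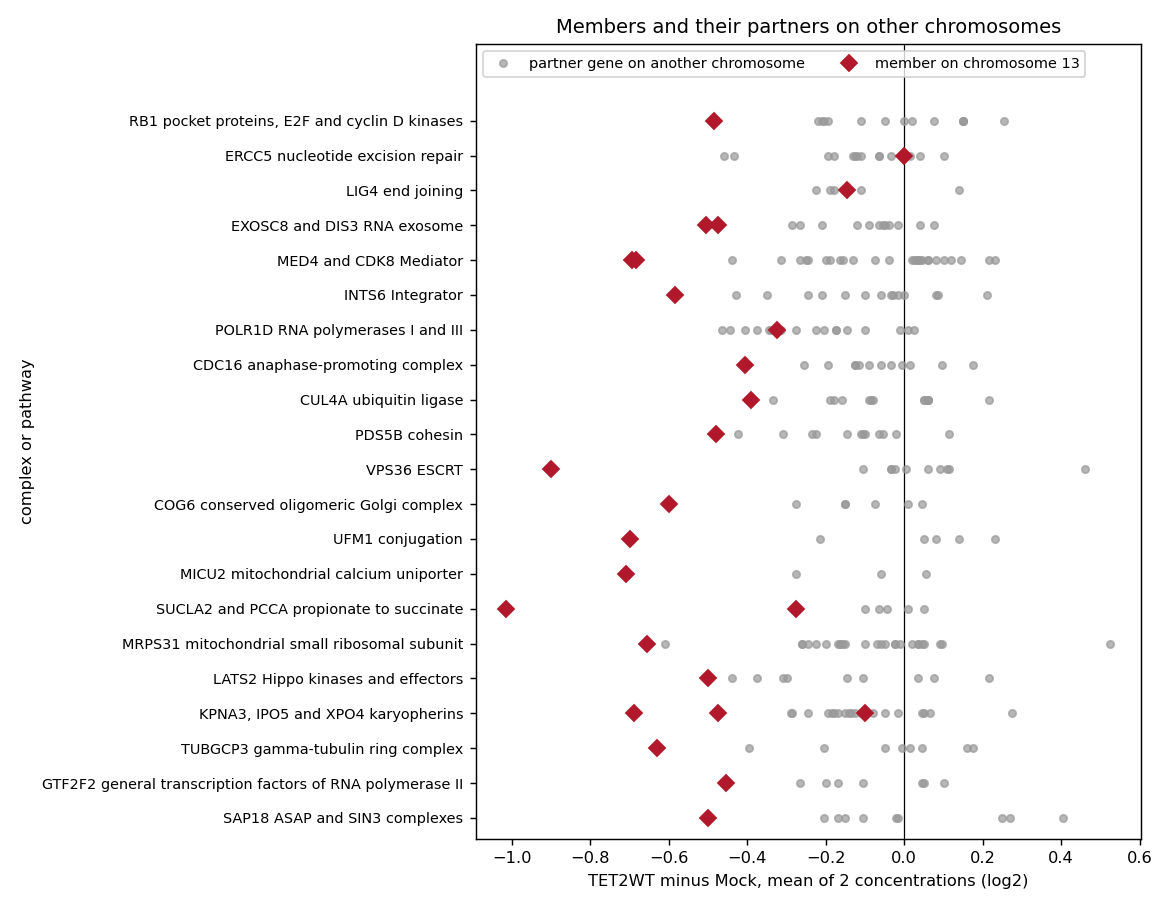
TET2WT minus Mock difference (log2, mean of the 2 concentrations) for members (red diamonds) and for their partners on other chromosomes (grey points), a line for each complex or pathway. In 22 of 26 cases the member lies to the left of every partner; IPO5, ERCC5, LIG4 and POLR1D lie among theirs.

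The arrays were checked against their labels. The TET2 probe set with the highest signal read 9.54 and 9.68 in TET2WT, 7.57 and 7.37 in TET2M, and 3.81 and 4.13 in Mock. Another read 6.64 and 6.87, 4.57 and 3.89, and 2.10 and 2.64 in the same order of lines, so in both TET2M lay between Mock and TET2WT. The remaining TET2 probe set did not separate the lines in this way, at 5.30 and 5.15, 5.41 and 5.31, and 5.23 and 5.22. Of 7 melanocyte markers measured, 4 were above 2.64 on all 6 arrays, SOX10 at 9.38 to 9.65 among them, and TYR, TYRP1 and MLANA were at or below it. Summed on the linear scale, melanocyte markers had a log2 value of 9.95 and 10.17 in TET2WT and 9.95 to 10.06 elsewhere, and neural crest and melanoma markers, 5 of 6 above 2.64, had 13.13 and 13.06 against 13.26 to 13.29. Keratinocyte markers, 4 of 5 above 2.64, had 9.46 and 9.47 against 9.41 to 9.63, and fibroblast markers, 3 of 5, had 5.97 and 5.70 against 5.96 to 6.31. The melanocyte, neural crest and keratinocyte sums rest mainly on SOX10, S100A6 and KRT10. In TET2WT these read 9.51 and 9.65, 12.84 and 12.79, and 9.35 and 9.39, so the sums say little of the other markers. Endothelial markers, 2 of 4 above 2.64, had 5.40 and 5.43 against 5.30 to 5.47, and blood markers, 1 of 4, had 5.10 and 4.74 against 4.75 to 4.99. PTPRC, CD14 and CDH5 were below 2.64 on all arrays, and PECAM1, VWF and HBB above it. Of all markers above 2.64 on all 6 arrays, 5 had both TET2WT arrays below the other 4, as in 12.8% of all genes tested. These were KRT14, at 4.55 and 3.89 against 5.91 to 6.86, LUM, CSPG4, MITF and S100A6. In 2, MCAM and PECAM1, both were above, as in 12% of all genes, and in the other 12 the arrays overlapped. The part of these markers in the members' differences was not tested. The 3′ minus 5′ difference of the ACTB control probe sets, a sign of RNA integrity, was 2.06 and 1.90 on the TET2WT arrays, 2.02 and 1.94 on the Mock arrays, and 1.93 and 1.65 on the TET2M arrays.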

How the data were processed

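Total RNA of the 6 cultures was measured on Affymetrix arrays, and the authors deposited log2 values per probe set. The submitters' processing notes name Affymetrix Expression Console. The version, the summary method and any correction for background are not stated there or in the labels. Of 54675 probe sets, 41091 name 1 gene and the rest were left out of gene comparisons. Symbols, chromosomes and gene order come from a RefSeq table of GRCh38.p14, as do the promoter windows. Probe sets with a mean below the 40th percentile (2.64) were left out, and the highest-mean probe set stood for a gene. Line and glucose were fitted as additive terms over all 14428 genes with limma 3.58.1 in R 4.3.3 (2 residual degrees of freedom), and the glucose response of TET2WT with an interaction. P-values are two-sided and Benjamini-Hochberg adjusted over all genes, with a threshold of 0.05. The fits were tested on simulated data with 200 changed genes and a noise that was set, not taken from the arrays. For TET2WT against Mock, 0% of 1.5-fold changes and 93% of 2-fold changes were recovered. For high against normal glucose these were 70% and 98.5%. Since the noise was set, these shares do not give the recovery on the arrays themselves. There, SAP18, at -0.50 against Mock, was called and CKAP2, at -0.55, was not, so line differences near 1.5-fold can go uncalled. Members and lists were chosen with earlier results of these data known. All analysed members are named by role. All 6 array values are given for the 10 most negative and 5 least negative by the mean of both TET2WT differences and for RB1, HMGB1, CUL4A, LAMP1 and FOXO1. For glucose, the 3 largest differences each way are named, and for partners up to 3 called genes each way. Alternatives covered normalization, probe set choice, the filter, the variance prior, the model terms and each array left out.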

Additional observations from a re-analysis of the deposited data

How the results depend on the processing

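The members' median TET2WT minus Mock difference of -0.455 became -0.41 under quantile normalization, -0.41 under cyclic loess, -0.435 when centred on genes outside chromosome 13, -0.42 with the mean of a gene's probe sets and -0.43 with the second probe set. Leaving out 1 array gave -0.46 to -0.41, and for TET2WT minus TET2M -0.41 to -0.355. The medians of all genes moved by less than 0.1 under these scalings. Under these alternatives 51 to 54 of 58 members were below 0, against 53 in the reported analysis. In alternatives added after the data were seen, the median difference from Mock ran from -0.515 to -0.44 for the proximal stretch, from -0.045 to 0.061 for the middle stretch and from -0.47 to -0.29 for the distal stretch. With the intensity trend in the variance prior, 6 members were called for glucose instead of 0. Partners called lower (1) became 0 when centred, 4 with the 60th percentile filter, 18 with the intensity trend, and 0 without the glucose term. Partners called higher (1) became 2 under quantile normalization, cyclic loess, centring and the 60th percentile filter, 3 with the mean of probe sets, 0 with the second probe set, 5 with the intensity trend and 0 without the glucose term. Leaving out any 1 array gave 0 to 0 in either direction. The cause of these changes was not tested. The labels give no replicate numbers. The glucose concentration, which the lines share, is a term of the reported model, and the settings without the glucose term are those without that pairing. With 1 array per combination, no line effect can be told apart from a difference between single cultures.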

Other observations

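Among the 199 tested chromosome 13 genes outside the list, the 3 with the most negative differences of TET2WT from Mock were SPRYD7 at -1.135, SOHLH2, a germ cell transcription factor, at -1.08, and KLF12, a Krüppel-like repressor, at -1.025. SPRYD7 read 3.92 and 3.59 on the TET2WT arrays, 5.02 and 4.76 on the Mock arrays, and 4.83 and 4.58 on the TET2M arrays, and all 3 genes lie in the proximal stretch. The 3 highest were NALCN, a sodium leak channel of neurons, at 2.28, GGACT, a cyclotransferase, at 0.855, and the antisense transcript MCF2L-AS1 at 0.695. NALCN read 4.95 and 5.43 on the TET2WT arrays, 2.95 and 2.87 on the Mock arrays, and 2.65 and 2.74 on the TET2M arrays. It stands in the middle stretch, among the members without a deficit, and the values outside TET2WT are near the level taken as background.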
